A study of Mus musculus with 56 samples.

Results

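The collagen chain genes of the mouse were taken as every listed gene whose symbol reads Col, a number, the letter a and a second number, and 37 of the 15539 listed genes met this rule. They comprised 10 fibrillar, 5 basement membrane, 5 microfibril and 17 other collagen genes. The mouse annotation (GENCODE M21) holds 44 such genes, and Col2a1, Col4a6, Col6a4, Col9a3, Col10a1, Col25a1 and Col28a1 were not analysed here. A filter on low counts passed 34 members, namely 10 fibrillar, 5 basement membrane, 4 microfibril and 15 other genes. Col6a5, Col9a2 and Col17a1, with 204, 171 and 208 counts summed over all mice, did not pass it and were not tested.

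The counts came from the gastrocnemius, the large calf muscle, of 56 C57Bl/6 mice, 7 in every combination of sex, genotype and wheel. Both genotypes carried floxed alleles of Elavl1, the gene of the RNA-binding protein HuR. The littermate controls were HuR fl/fl, and the mice labelled HuR knockout, here HuRm-/-, carried in addition a Cre recombinase under the Mlc1f promoter of Myl1, which is active in skeletal muscle fibres and not in the fibroblasts that make most collagen. The labels give an age of 5 months and either a running wheel from week 10 to week 20 or a wheel that was locked. The study describes the mice of the transcriptomics as a cohort of their own, and no cage or sequencing batch is given for single mice in the sources used here.

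Collagens are proteins of the extracellular matrix whose chains wind into triple helices. Fibrillar collagens I, III and V build the cable-like fibrils that carry force in tendon and in the connective tissue around muscle fibres, while collagen IV forms the sheet of the basement membrane and collagen VI the beaded microfibrils that link it to the fibrils outside. The remaining members sit on fibril surfaces (collagens IX, XII, XIV, XVI and XIX), anchor membranes (VII), form short-chain networks (VIII), join basement membranes to the matrix (XV and XVIII) or span the cell membrane (XIII and XXIII).

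The promoter windows of 4 members are shown, 5′ to 3′ on the strand of the gene. Each runs from 250 bases before to 50 bases after a RefSeq transcript start on GRCm38.p6. Their part in the collagen results was not tested. Col1a2 and Col3a1 encode major fibril chains, and Col4a1 and Col4a2 encode the paired chains of the basement membrane network. Capitals mark the letters of the CCAAT box, of the GC box (GGGCGG) and of the TATA box (TATAAA), anywhere in the window. A match on the other strand appears as its reverse complement, and its distance from the start was not considered. The windows lie at chr6:4505368-4505667 (plus strand), chr1:45311288-45311587 (plus strand), chr8:11312777-11313076 (minus strand) and chr8:11312555-11312854 (plus strand).
Col1a2: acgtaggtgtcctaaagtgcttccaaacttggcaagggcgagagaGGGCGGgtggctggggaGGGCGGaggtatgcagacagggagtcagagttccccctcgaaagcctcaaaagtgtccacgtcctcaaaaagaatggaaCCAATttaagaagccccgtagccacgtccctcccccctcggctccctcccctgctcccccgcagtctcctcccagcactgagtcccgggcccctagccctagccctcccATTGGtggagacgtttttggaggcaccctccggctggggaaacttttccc
Col3a1: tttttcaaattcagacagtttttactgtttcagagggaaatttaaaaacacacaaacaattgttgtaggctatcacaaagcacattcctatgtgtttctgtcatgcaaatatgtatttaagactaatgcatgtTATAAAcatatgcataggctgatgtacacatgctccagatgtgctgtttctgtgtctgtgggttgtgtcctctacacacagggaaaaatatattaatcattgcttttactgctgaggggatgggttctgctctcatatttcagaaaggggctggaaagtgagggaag
Col4a1: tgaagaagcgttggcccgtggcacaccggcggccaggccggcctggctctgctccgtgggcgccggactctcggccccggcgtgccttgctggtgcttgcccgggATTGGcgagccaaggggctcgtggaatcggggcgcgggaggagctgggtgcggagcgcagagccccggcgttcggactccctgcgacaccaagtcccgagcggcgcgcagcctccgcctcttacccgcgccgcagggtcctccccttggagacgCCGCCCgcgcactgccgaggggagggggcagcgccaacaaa
Col4a2: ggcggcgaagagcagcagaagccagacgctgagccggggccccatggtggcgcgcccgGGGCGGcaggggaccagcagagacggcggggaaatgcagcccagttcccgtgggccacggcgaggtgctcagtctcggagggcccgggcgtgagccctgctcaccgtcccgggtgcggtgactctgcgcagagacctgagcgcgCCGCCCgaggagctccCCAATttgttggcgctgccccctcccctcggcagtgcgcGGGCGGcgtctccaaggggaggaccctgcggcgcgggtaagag

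The Col1a2 window held 2 matches to CCAAT and 2 to GGGCGG, and the Col3a1 window held 1 match to TATAAA and neither of the others. The GC content was 61.0% for Col1a2 and 37.7% for Col3a1. The Col4a1 and Col4a2 genes start head to head on chromosome 8, and their windows shared 78 bases and had a GC content of 74.0% and 73.7%. Of 32851 windows of the same length over all genes, 37.4% held CCAAT, 35.7% held GGGCGG and 13.6% held TATAAA on either strand. Windows were found for 30 of the collagen genes, 33 windows in all, of which 11 held CCAAT, 20 held GGGCGG and 4 held TATAAA. A match is a run of letters and was not tested for binding.

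Counts summed to between 6639782 and 21633091 per mouse. Collagen genes took 0.0692% to 0.391% of them (median 0.170%), and Col1a2, Col1a1 and Col3a1 together held 68.0% of the collagen counts. Levels below are CPM, the counts in each 1000000 counts of a library whose size was adjusted by TMM, and differences are log2 fold changes from a voom and limma fit of all 56 mice, called at a Benjamini-Hochberg adjusted p of at most 0.05 over 14321 genes. Elavl1 was not lower in the mice labelled HuRm-/-: its average genotype difference was 0.13 (SE 0.06, adjusted p = 0.15), with 27.8 to 61.9 CPM in single control mice and 37.9 to 69.8 CPM in HuRm-/- mice. Its mean level in males on locked wheels was 53.2 ± 7.89 CPM in controls and 51.0 ± 4.41 CPM in HuRm-/- mice (SD, n = 7). Myl1, which supplies the promoter of the Cre, differed by -0.65 (SE 0.11, adjusted p = 5.6e-05). The labels name a kit that reads the 3′ end of transcripts, and where the floxed part of Elavl1 lies is not given in the sources used here, so its counts may not report on the deletion. Genotype below follows the labels. The summed level of 12 skeletal muscle markers was 96727 to 142691 CPM per mouse. Its medians in controls were 135456 CPM in locked and 116213 CPM in running males, and 106481 and 116855 CPM in females. In HuRm-/- mice they were 127232 and 115508 CPM in males, and 103143 and 102066 CPM in females. The part of the muscle markers in the collagen results was not tested. Liver markers summed to more than 500 CPM in 6 mice, all on locked wheels, with the highest sum (3073 CPM) in female control 15. Female control 12 (516 CPM) was among the 6, and it is also left out in another fit below.

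Most fibrillar collagen genes were higher in females than in males on locked wheels, and much less so on running wheels. In the average over genotype and wheel, 23 of the 34 members differed between the sexes, 17 higher and 6 lower in females, against 33% of all genes called in either direction, 15.8% higher and 17.1% lower. Without female controls 12 and 16 on locked wheels, which held the most fibrillar counts, 21 differed against 30% of all genes, Col8a2 and Col4a3 losing their call, and without 6 mice with liver markers 22 against 28.5%. The median member was 0.25 higher in females on the log2 scale, and the median gene 0.0045 higher. Of the fibrillar genes 8 of 10 were higher and none lower. Of the basement membrane genes 2 of 5 were lower and none higher. Of the microfibril genes 3 of 4 were higher and 1 lower, and of the others 6 of 15 were higher and 3 lower. These differences are not adjusted for the cell content of the muscle.

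**Figure D1:**
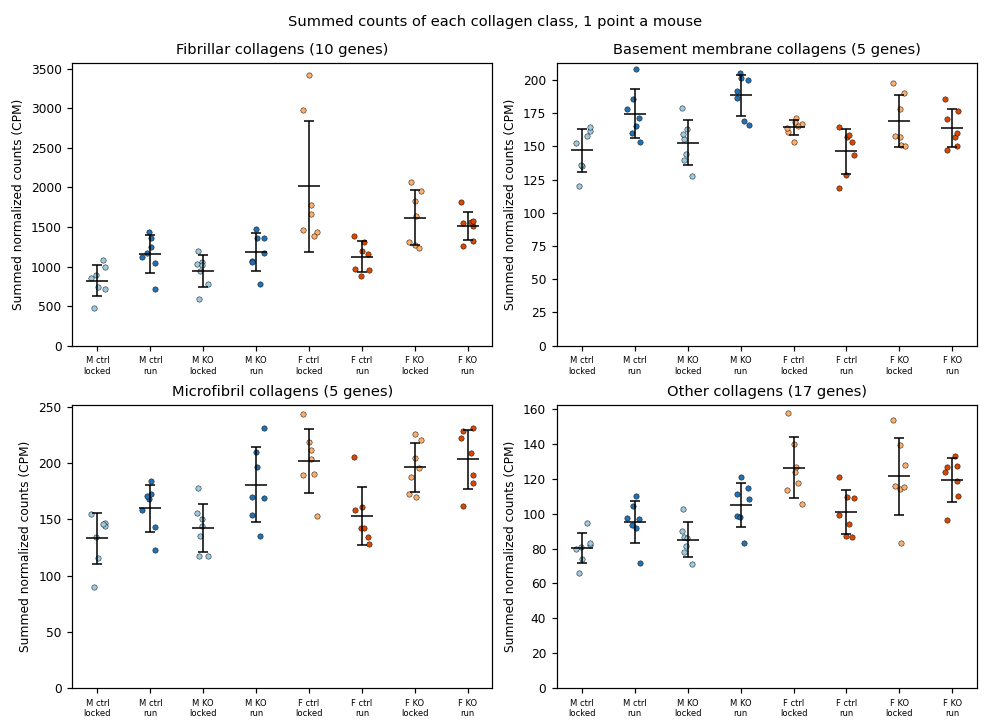
Summed level of the collagen genes of each class (y axis, CPM) in the 8 groups (x axis; M male, F female, ctrl control, KO labelled HuRm-/-, run running wheel), with 1 point a mouse and bars for the mean and 1 SD (n = 7). Medians of the fibrillar sum were 852 CPM in locked-wheel male controls and 1666 CPM in locked-wheel female controls, and 1167 and 1157 CPM on running wheels.

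Summed over the 10 fibrillar genes, male controls held 482 to 1079 CPM (median 852) on locked wheels and 714 to 1441 CPM (median 1167) on running wheels. Female controls held 1391 to 3422 CPM (median 1666) and 879 to 1388 CPM (median 1157). The sexes were apart on locked wheels and overlapped on running wheels, with a higher median in running than in locked males and a lower one in running than in locked females. Male HuRm-/- mice held 585 to 1199.7 CPM (median 1013) on locked and 775 to 1479 CPM (median 1176) on running wheels. Female HuRm-/- mice held 1234 to 2067 CPM (median 1644) and 1262 to 1809.6 CPM (median 1547). Here too the sexes did not overlap on locked wheels, and the running groups did. The plot of class sums also shows 2 locked-wheel female controls far above the rest, mouse 16 with a fibrillar sum of 3422 CPM and mouse 12 with 2971 CPM, and counts of called members that rest on this group are given with and without both.

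Col1a1 and Col1a2 encode the chains of collagen I, the most abundant fibril protein of tendon and muscle connective tissue. Col1a1 (chromosome 11) measured 103 to 251 CPM (median 189) in locked-wheel male controls and 306 to 887 CPM (median 376) in locked-wheel female controls. On running wheels it measured 140.1 to 305 CPM (median 263) in male and 189.7 to 344 CPM (median 255) in female controls. All locked-wheel female controls thus exceeded all locked-wheel male controls, and the running groups overlapped. In HuRm-/- mice Col1a1 measured 119 to 275 CPM (median 208) in locked-wheel males and 248 to 498 CPM (median 416) in locked-wheel females. With wheels running it measured 164 to 358 CPM (median 272) in HuRm-/- males and 270.5 to 451 CPM (median 348) in HuRm-/- females. The HuRm-/- groups overlapped between the sexes on both wheels. The sex difference averaged 0.70 (SE 0.10, adjusted p = 1.4e-07), a 1.62-fold higher level in females.

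Col1a2 (chromosome 6), the member with the most counts, showed the same order. It measured 221 to 520.2 CPM (median 385) in locked-wheel and 336 to 741 CPM (median 572) in running-wheel male controls. Female controls gave 677 to 1963 CPM (median 847) and 434 to 683 CPM (median 564). The female controls were the higher sex on locked wheels without overlap, and the running groups held nearly equal medians. HuRm-/- males gave 271 to 607 CPM (median 473) locked and 354 to 654 CPM (median 585) running. HuRm-/- females gave 574 to 1086 CPM (median 873) locked and 581 to 906 CPM (median 764) running. The locked HuRm-/- sexes overlapped, as did the running ones. The average sex difference of Col1a2 was 0.64 (SE 0.10, adjusted p = 2.5e-07), and without female controls 12 and 16 it was 0.56 for Col1a2 and 0.61 for Col1a1, both called.

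Col3a1 encodes collagen III, whose thin fibrils are mixed with collagen I in the perimysium and endomysium, and is shown because it holds the next most counts. It measured 98.5 to 211 CPM (median 187) in locked-wheel male controls and 289.6 to 589.6 CPM (median 324) in locked-wheel female controls. On running wheels the ranges were 157 to 279 CPM (median 237) in males and 143 to 322 CPM (median 194) in females. The control sexes stood apart on locked wheels and overlapped on running wheels. In HuRm-/- mice Col3a1 measured 122 to 261 CPM (median 191) in locked-wheel males and 225 to 375 CPM (median 289.6) in locked-wheel females. With wheels running it measured 167 to 335 CPM (median 246) in HuRm-/- males and 242 to 328 CPM (median 294) in HuRm-/- females, and the sexes overlapped in HuRm-/- mice on both wheels. Its sex difference was 0.90 (SE 0.11, adjusted p = 6.0e-09) on locked wheels and 0.00 (SE 0.11, adjusted p = 0.99) on running wheels, averaged over genotype. The locked-wheel value was 0.80 (SE 0.11, adjusted p = 9.1e-08) without female controls 12 and 16. The interval of the running-wheel difference was -0.22 to 0.23. The contrasts by wheel and by sex that are averaged over genotype were added after values had been seen.

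Collagens V and XI are minor fibril chains that control how fibrils start and how wide they become. Col5a1, Col5a2 and Col5a3 were higher in females by 0.31, 0.30 and 0.26 on average. Col11a1 differed by 0.56 (SE 0.13, adjusted p = 6.5e-04) and Col11a2 by 0.62 (SE 0.14, adjusted p = 3.6e-04). For Col11a2 the medians over male groups were 2.88 and 2.90 CPM in locked and running controls and 3.64 and 3.43 CPM in HuRm-/- mice. The female medians were 5.32 and 3.53 CPM in controls and 5.36 and 5.90 CPM in HuRm-/- mice, above the matching male median in all 4 pairs. The fibrillar genes Col24a1 and Col27a1, with medians of 1.47 and 4.09 CPM over all mice, were not called in the average.

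Collagen IV chains did not follow the fibrillar genes in the average over wheels. Col4a1, the basement membrane member with the most counts, measured 72.2 to 103 CPM (median 87.7) in locked-wheel and 91.4 to 131 CPM (median 108) in running-wheel male controls. Female controls gave 96 to 103 CPM (median 99.7) and 71.3 to 106 CPM (median 93). Locked-wheel female controls were the tightest of the 8 groups, with a mean of 99.8 ± 2.42 CPM (SD, n = 7), and the running females reached lower and the running males higher. HuRm-/- males gave 81.2 to 109.8 CPM (median 91.3) locked and 96.9 to 129 CPM (median 119) running. HuRm-/- females gave 90.3 to 117 CPM (median 109.7) locked and 91.9 to 120.4 CPM (median 98.3) running. The sex difference of Col4a1 changed direction with the wheel, from 0.20 (SE 0.06, adjusted p = 0.0058) on locked to -0.25 (SE 0.06, adjusted p = 0.0016) on running wheels.

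Col4a3 and Col4a4 encode chains of the collagen IV network that is best known from kidney and inner ear, and they were the basement membrane genes called in the sex average. Col4a4 measured 4.31 to 9.02 CPM (median 6.62) in locked-wheel male controls and 2.41 to 6.22 CPM (median 3.69) in locked-wheel female controls. With running wheels it measured 5.09 to 8.28 CPM (median 5.73) and 2.19 to 5.82 CPM (median 3.67). HuRm-/- males had medians of 6.47 CPM locked and 7.82 CPM running, and HuRm-/- females 4.97 and 3.94 CPM. Every female median was below its male counterpart, and the groups overlapped in each pair. The difference of Col4a4 averaged -0.64 (SE 0.09, adjusted p = 4.2e-08) and remained called on both wheels. Col4a3, at a median of 0.886 CPM, differed by -0.62 (SE 0.23, adjusted p = 0.032).

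Collagen VI is the microfibril collagen of muscle, and loss of its chains causes Ullrich and Bethlem myopathies. Col6a3, its member with the most counts, measured 41.8 to 82.4 CPM (median 64.4) in locked-wheel and 60.4 to 98.8 CPM (median 86.7) in running-wheel male controls. Female controls gave 82.2 to 124 CPM (median 94.2) locked and 58.9 to 98.2 CPM (median 69.7) running. The ranges touched in the locked groups, where the lowest female lay just below the highest male. HuRm-/- males gave 52.5 to 82.1 CPM (median 68.9) and 69.1 to 119 CPM (median 91.2). HuRm-/- females gave 69.8 to 109 CPM (median 97.9) and 69.8 to 129 CPM (median 96.2). Averaged over groups, Col6a1, Col6a2 and Col6a3 were higher in females by 0.44, 0.35 and 0.25, whereas Col6a6, a chain that can take the place of the third one, was lower by -0.62 (SE 0.12, adjusted p = 6.5e-05).

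**Figure D2:**
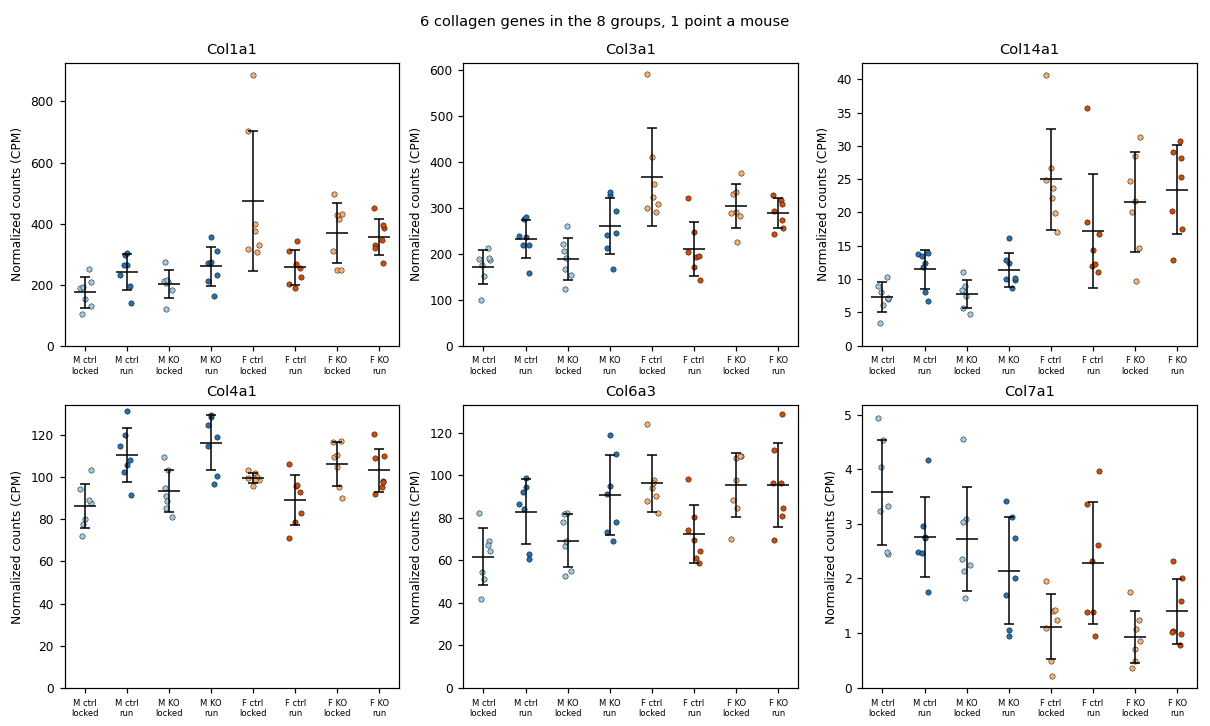
Level of 6 collagen genes (y axis, CPM) in each mouse of the 8 groups (x axis; M male, F female, ctrl control, KO labelled HuRm-/-, run running wheel), with bars for the mean and 1 SD (n = 7). Col1a1, Col3a1 and Col14a1 separate the locked-wheel control sexes, Col4a1 is near 99.7 CPM in every locked-wheel female control, and Col7a1 is lower in females.

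The other collagens held the largest sex difference in each direction. Col14a1, whose product coats collagen I fibrils in tendon, measured 3.43 to 10.4 CPM (median 7.15) in locked-wheel male controls and 17 to 40.6 CPM (median 23.7) in locked-wheel female controls. On running wheels the controls measured 6.70 to 14 CPM (median 12.4) and 11 to 35.8 CPM (median 14.4). No locked-wheel control female was as low as any male, while the running groups overlapped. HuRm-/- males had medians of 8.14 CPM locked and 10.2 CPM running, against 21.7 and 25.3 CPM in HuRm-/- females. The average difference was 1.20 (SE 0.12, adjusted p = 9.4e-12), or 2.30-fold, and it was called on locked (1.63) and on running wheels (0.78).

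Col12a1 and Col16a1 encode further fibril-associated collagens. Col12a1 had medians of 4.31, 4.93, 3.46 and 4.68 CPM in locked control, running control, locked HuRm-/- and running HuRm-/- males. In females in the same order they were 6.49, 4.87, 6.76 and 6.66 CPM. Running control medians were nearly equal between the sexes and the other 3 pairs were further apart, and the average difference was 0.66 (SE 0.13, adjusted p = 7.4e-05). Col16a1 had male medians of 5.75, 6.33, 5.85 and 6.27 CPM in that order. Its female medians were 10.7, 8.81, 8.34 and 8.56 CPM. Col16a1 was the one of the pair still called on running wheels, at 0.51 (SE 0.12, adjusted p = 0.0016), with an average of 0.65 (SE 0.09, adjusted p = 2.2e-08).

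Col15a1, the member of the other collagens with the most counts, encodes a proteoglycan collagen of the basement membrane zone around muscle fibres and capillaries. It measured 16.9 to 27.9 CPM (median 21.7) in locked-wheel and 23.8 to 34.3 CPM (median 26.1) in running-wheel male controls. Female controls gave 27.9 to 34.8 CPM (median 33.7) locked and 18.8 to 26.9 CPM (median 25.2) running. In female controls the wheels were apart, every running mouse being below every locked one, which 1.12% of all genes showed in this direction. HuRm-/- males gave medians of 22 CPM locked and 27.8 CPM running, and HuRm-/- females 31 and 31.8 CPM. The sex difference of Col15a1 averaged 0.26 (SE 0.06, adjusted p = 2.7e-04). The short-chain collagens Col8a1 and Col8a2, known from vessel walls, were higher in females by 0.41 and 0.42.

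Col7a1, Col9a1 and Col19a1 were the members of the other collagens that were lower in females, and all are low in counts. Col7a1, which makes the anchoring fibrils of epithelia, measured 2.45 to 4.94 CPM (median 3.33) in locked-wheel male controls and 0.222 to 1.96 CPM (median 1.24) in locked-wheel female controls. On running wheels it measured 1.76 to 4.17 CPM (median 2.75) and 0.948 to 3.97 CPM (median 2.33) in the controls. The locked control sexes did not overlap and the running ones did. HuRm-/- medians were 2.36 and 2.02 CPM in locked and running males and 0.854 and 1.04 CPM in females. The average difference of Col7a1 was -1.03 (SE 0.17, adjusted p = 1.7e-06), a 2.04-fold higher level in males.

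Col9a1, a cartilage collagen that coats collagen II fibrils, had male medians of 1.66, 1.28, 0.875 and 1.11 CPM in locked control, running control, locked HuRm-/- and running HuRm-/- mice. Female medians were 0.765, 0.541, 0.615 and 0.441 CPM. Its difference of -1.25 (SE 0.23, adjusted p = 2.2e-05) was the largest of all members, at 10 counts in the median mouse. Col19a1 had medians of 1.66, 1.48, 2.06 and 2.28 CPM in males and 1.24, 2.07, 0.615 and 1.64 CPM in females, in the same order. Running control females were the one female group with a median above the matching males. The average sex difference of Col19a1 was -0.71 (SE 0.16, adjusted p = 2.4e-04).

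The 11 tested members that were not called in the sex average were Col24a1, Col27a1, Col4a1, Col4a2, Col4a5, Col13a1, Col18a1, Col20a1, Col22a1, Col23a1 and Col26a1, with values from -0.29 (Col20a1) to 0.24 (Col13a1). Col22a1, which marks the junction of muscle and tendon, had group medians from 6.89 CPM in locked male controls to 9.11 CPM in running female controls. Its sex difference was 0.05 (SE 0.09, adjusted p = 0.75) and it was not called in any comparison here. Col18a1, the source of endostatin, gave -0.04 (SE 0.09, adjusted p = 0.8), and the transmembrane collagens Col13a1 and Col23a1 gave 0.24 and -0.00. Col26a1, with 243 counts over all mice, was the member with the fewest counts to be tested.

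Within single strata, 20 members differed between the sexes in locked-wheel controls (17 higher and 3 lower in females). Of all genes 21.5% were called there, 10.3% higher and 11.2% lower. Without female controls 12 and 16 the count was 14 (12 higher, 2 lower) against 15.4% of all genes, and Col8a1, Col8a2, Col9a1, Col11a1, Col11a2 and Col12a1 lost their call. Without the mice with liver markers it was 18 against 16.1%. In locked-wheel HuRm-/- mice 18 differed (16 higher, 2 lower), against 19.3% of all genes, 9.08% higher and 10.2% lower, and the count was 13 against 12.3% without the mice with liver markers. On running wheels 5 differed in controls (2 higher, 3 lower), against 7.65% of all genes, 3.09% higher and 4.57% lower, and the count was 2 without female control 27. In HuRm-/- mice 3 differed (2 higher, 1 lower), against 5.57%, 2.3% higher and 3.26% lower. Averaged over genotype, 23 differed on locked wheels (18 higher, 5 lower), against 33.6% of all genes, 16.4% higher and 17.2% lower, and 23 against 29.1% without female controls 12 and 16. On running wheels 8 differed (4 higher, 4 lower), against 14.8%, 6.51% higher and 8.27% lower. The members called on running wheels were Col6a1, Col14a1, Col16a1 and Col27a1, which were higher in females, and Col4a1, Col4a4, Col6a6 and Col9a1, which were lower. In locked-wheel controls 6 members (Col1a1, Col1a2, Col3a1, Col5a2, Col5a3 and Col14a1) were higher in all 7 females than in all 7 males, which 3% of all genes were, and Col7a1 was lower without overlap, as 3.98% of all genes were. Leaving out mice cannot create overlap, so these 7 members remained apart without female controls 12 and 16, and no other member joined them. In that comparison 3.37% of all genes were higher and 4.43% lower. No member stood apart in the other 3 strata.

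**Figure D3:**
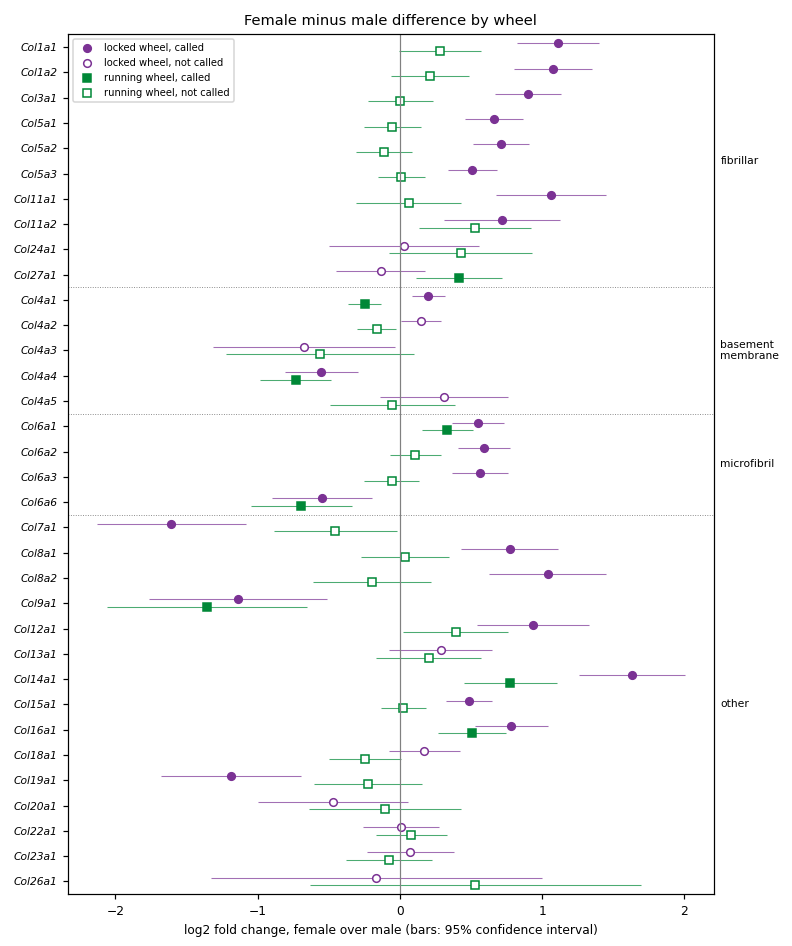
Female over male log2 fold change (x axis) of the 34 tested members (y axis, by class) on locked wheels (circles) and running wheels (squares), averaged over genotype, with 95% confidence intervals and filled symbols where called. 23 members were called on locked wheels and 8 on running wheels, and Col4a1 lies on opposite sides of 0.

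The test of whether the wheel difference itself differed between the sexes called 17 members, 15 with a lower and 2 with a higher running minus locked difference in females, against 13.7% of all genes called (6.9% lower and 6.79% higher). The median member was -0.34 and the median gene 0.0042. Of the fibrillar genes 7 of 10 were called (Col1a1, Col1a2, Col3a1, Col5a1, Col5a2, Col5a3 and Col11a1), with a median of -0.77 over the class. Of the basement membrane genes Col4a1 and Col4a2 were called and of the microfibril genes Col6a2 and Col6a3. Of the others Col8a1, Col8a2, Col14a1 and Col15a1 were called lower and Col7a1 and Col19a1 higher. Without female controls 12 and 16 the test called 15 members against 10.7% of all genes, and without the 6 mice with liver markers 13 against 9.22%. Col1a1 was then -0.65, Col1a2 -0.68, Col3a1 -0.79 and Col5a2 -0.72 without the 2 female controls, and all 4 were called.

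Among the fibrillar genes the difference between the sexes was -0.83 (SE 0.20, adjusted p = 0.0036) for Col1a1 and -0.86 (SE 0.19, adjusted p = 0.0015) for Col1a2. Col3a1 gave -0.90 (SE 0.16, adjusted p = 8.9e-05) and Col5a2, a chain of collagen V, -0.82 (SE 0.14, adjusted p = 3.8e-05). Averaged over genotype, these values stand for opposite movements in the sexes. Col3a1 was 0.46 in running over locked males and -0.44 in running over locked females, and both were called. Col5a2 gave 0.36 and -0.47, also both called. For Col1a1 the male value of 0.42 had an adjusted p of 0.088 and the female value of -0.41 one of 0.04. By genotype, the median wheel difference of the 10 fibrillar genes was -0.60 in female controls and -0.04 in female HuRm-/- mice. In males it was 0.39 in controls and 0.34 in HuRm-/- mice. The test of the difference between the female genotypes called 0 of the 10.

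Col4a1 and Col4a2, which encode chains of the same collagen IV helix, gave -0.45 (SE 0.08, adjusted p = 1.4e-04) and -0.31 (SE 0.10, adjusted p = 0.023). Col4a1 rose in running males by 0.33 (SE 0.06, adjusted p = 2.2e-04) and gave -0.11 (SE 0.06, adjusted p = 0.2) in females. Col4a2 measured 38.5 to 62.6 CPM (median 50.2) in locked and 48.8 to 66.3 CPM (median 54.3) in running male controls. In female controls it measured 54.1 to 63.3 CPM (median 56.1) locked and 41.8 to 54.7 CPM (median 53.8) running. The ranges of Col4a2 overlapped between the wheels in both sexes. The annotated genes overlap by 22 bases, and reads there cannot be assigned without strand.

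Col7a1 and Col19a1 moved the other way, with 1.15 (SE 0.34, adjusted p = 0.015) and 0.97 (SE 0.31, adjusted p = 0.028). Col19a1 rose in running females by 0.96 (SE 0.25, adjusted p = 0.0057) and gave -0.01 in males. Its call between the sexes was lost with edgeR (adjusted p = 0.096) and DESeq2 (adjusted p = 0.077) and in 4 of the 56 fits that left out 1 mouse, those without locked-wheel female HuRm-/- 17 or 30, female control 12 or male control 17 (largest adjusted p 0.063). Col8a2 had the largest negative value, -1.23 (SE 0.29, adjusted p = 0.0025). It measured 4.56 to 10.2 CPM (median 6.18) in locked and 2.14 to 6.37 CPM (median 4.14) in running female controls. In HuRm-/- females it measured 4.67 to 10.9 CPM (median 6.48) locked and 2.08 to 8.0 CPM (median 3.23) running. Running females were mostly low in both genotypes, with overlap, and male medians of Col8a2 lay between 3.65 and 4.03 CPM.

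**Figure D4:**
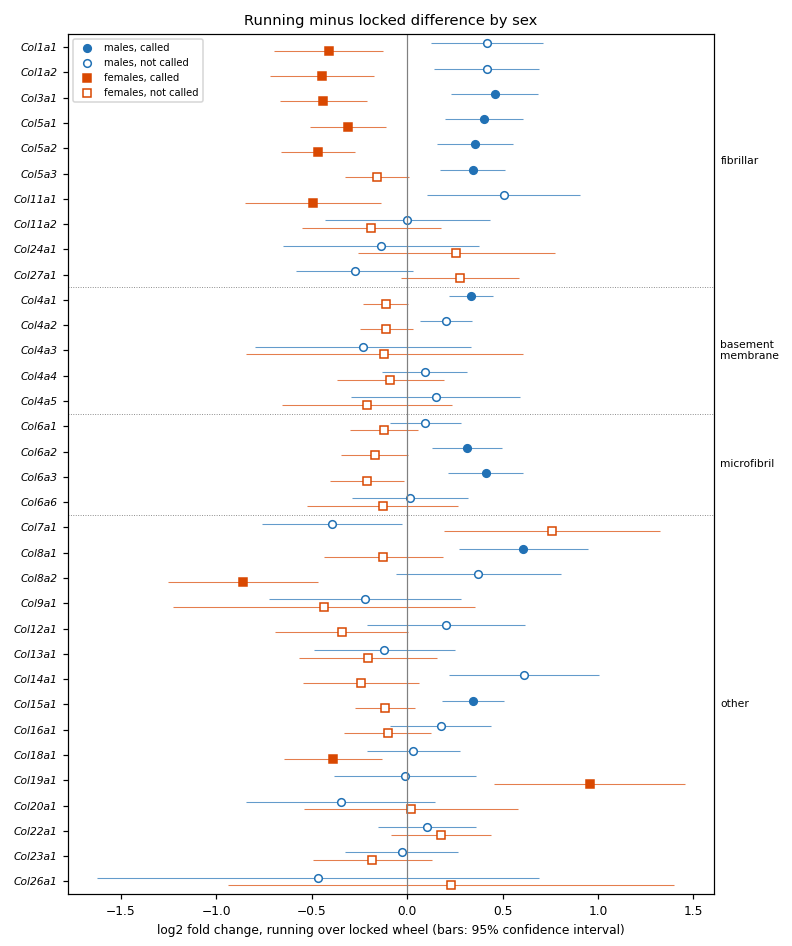
Running over locked log2 fold change (x axis) of the 34 tested members (y axis, by class) in males (circles) and females (squares), averaged over genotype, with 95% confidence intervals and filled symbols where called. 9 members were called in males, all higher, and 9 in females, 8 lower and 1 higher.

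Averaged over sex and genotype, running called none of the 34 members, against 5.96% of all genes. At an unadjusted p under 0.05 limma had 5 members, and edgeR and DESeq2 called 0. Counts at an unadjusted p, here and below, have no share of all genes at the same limit beside them. They are therefore not read as results about the members. Averaged over genotype, 9 members rose in running males (Col3a1, Col5a1, Col5a2, Col5a3, Col4a1, Col6a2, Col6a3, Col8a1 and Col15a1), against 2.09% of all genes called higher and 4.13% in either direction. In females 8 fell (Col1a1, Col1a2, Col3a1, Col5a1, Col5a2, Col11a1, Col8a2 and Col18a1) and Col19a1 rose, against 14.8% of all genes, 6.93% lower and 7.86% higher. Without female controls 12 and 16 the count in females was 4 against 9.88% of all genes, and without the mice with liver markers 5 against 10.4%. Col1a1, Col1a2, Col5a1, Col11a1 and Col18a1 lost their call without the 2 female controls, and Col3a1, Col5a2, Col8a2 and Col19a1 kept it. In males the count was 11 against 4.06% without them, with Col1a1 and Col1a2 added, and 6 against 2.33% without the mice with liver markers.

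By stratum the wheel differences were uneven, and the groups shared between these comparisons make them dependent. In female controls 10 members were called, 9 lower and 1 higher on running wheels, against 8.74% of all genes, 4.23% lower and 4.5% higher. These were Col1a1 (-0.81), Col1a2 (-0.81), Col3a1 (-0.81), Col5a1, Col5a2 (-0.71), Col6a2, Col6a3, Col8a2 and Col15a1, with Col19a1 higher by 1.17. The count was 5 without female control 12. It was 2 without female controls 12 and 16, against 2.68% of all genes in that fit, and 6 without the mice with liver markers, against 4.94%. Calls over all genes thus fell as well. Col3a1 and Col5a2 were the members still called without both female controls, and Col1a1 (-0.46, adjusted p = 0.18) and Col1a2 (-0.47, adjusted p = 0.14) were not. In female HuRm-/- mice 0 were called, against 3.85% of all genes, and 3 had an unadjusted p under 0.05, while edgeR and DESeq2 called 0. The difference between the wheel responses of the female genotypes called 0 members and 0% of all genes in limma, with 11 members at an unadjusted p under 0.05, so the genotypes were not shown to differ.

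In male controls 1 member, Col4a1, was called (0.35 (SE 0.08, adjusted p = 0.0094)), against 1.49% of all genes called higher and 3.24% in either direction, and 5 were called without running male control 5. In male HuRm-/- mice 0 were called, against 0.0419% of all genes, and 11 had an unadjusted p under 0.05, all higher, where edgeR called 0 and DESeq2 1. Both male strata held 11 members under that unadjusted limit, all higher on running wheels, without a share of all genes at that limit to compare. Col5a3 was higher in every running than in every locked male control, which 0.454% of all genes were.

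Genotype, taken from the labels, called 1 member, Col4a1, in the average over sex and wheel. The median member was 0.13 higher in HuRm-/- mice and the median gene 0.014 higher, with 26 of the 34 members above 0 and 8 below. At an unadjusted p under 0.05 limma had 11 members in this average, 9 higher and 2 lower. Col4a1 was higher in HuRm-/- mice by 0.12 (SE 0.04, adjusted p = 0.037), a 1.09-fold level, against 4.43% of all genes called higher and 11.8% in either direction. The call was lost in 8 of the 56 fits that left out 1 mouse, with adjusted p from 0.051 to 0.067. These left out running female control 28, locked female HuRm-/- 31, locked male control 16 or 20, running male control 5, locked male HuRm-/- 15 or running male HuRm-/- 1 or 6, and 4 members were called without running male HuRm-/- 4. In the 4 strata of sex and wheel 0 members were called, against 1.15% of all genes in locked males, 2.63% in running males, 0.384% in locked females and 0% in running females. At an unadjusted p under 0.05 these strata held 2, 1, 3 and 13 members, and edgeR called 0 in each, while DESeq2 called 2 in running females and 0 in the rest. All 13 in running females were higher in HuRm-/- mice, again without a share of all genes at that limit to compare. Genotype by wheel and sex by genotype each called 0 members, against 0.00698% of all genes, with 5 and 1 members at an unadjusted p under 0.05 and 0 called by edgeR or DESeq2.

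Collagen chains assemble in fixed combinations, so pairs of genes were compared mouse by mouse after the mean of each group was removed (n = 56, 10 pairs, 100000 permutations within groups, Benjamini-Hochberg adjusted over the pairs). Col1a1 and Col1a2, which share the collagen I helix, gave r = 0.95, rho = 0.94, adjusted p = 2.5e-05 and 3.3e-05, and r was 0.94 without the 2 mice farthest from the Col1a1 median. Their permutation p of 1e-05 is the smallest these permutations can give. Col6a1 and Col6a2, partners in collagen VI, gave r = 0.76, rho = 0.65, adjusted p = 2.5e-05 and 3.3e-05. The chains of collagen V, Col5a1 and Col5a2, gave r = 0.65, rho = 0.63, adjusted p = 2.5e-05 and 4.0e-05. Col4a1 and Col4a2 gave r = 0.60, rho = 0.61, adjusted p = 4.0e-05 and 4.0e-05. Without the 2 farthest mice these 3 were 0.71, 0.58 and 0.59.

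Between different collagens, Col1a1 and Col3a1 gave r = 0.69, rho = 0.67, adjusted p = 2.5e-05 and 3.3e-05, and Col1a1 and Col6a1 gave r = 0.50, rho = 0.48, adjusted p = 4.3e-04 and 7.0e-04. Col1a1 and Col4a1 gave r = 0.35, rho = 0.33, adjusted p = 0.0098 and 0.024, a weaker relation across fibril and basement membrane genes. Without the 2 farthest mice r was 0.68, 0.46 and 0.35. Chains of the same collagen were not always closely related. Col4a3 and Col4a4, of 1 collagen IV network and 71 bases apart, gave r = 0.36, rho = 0.28, adjusted p = 0.018 and 0.061, and r without the 2 farthest mice was 0.24. Col6a1 and Col6a3, both chains of collagen VI, gave r = 0.36, rho = 0.28, adjusted p = 0.017 and 0.061, and 0.30 without the 2 farthest mice. In these 2 pairs r was near that of Col1a1 and Col4a1, and rho did not pass. Of different collagens, Col4a1 and Col15a1 gave r = 0.26, rho = 0.19, adjusted p = 0.078 and 0.21, which did not pass, and 0.29 without the 2 farthest mice. All pairs share the libraries, their depth and the cell content of each muscle sample. No pairs of other genes were compared, so these values do not bear on chain assembly.

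**Figure D5:**
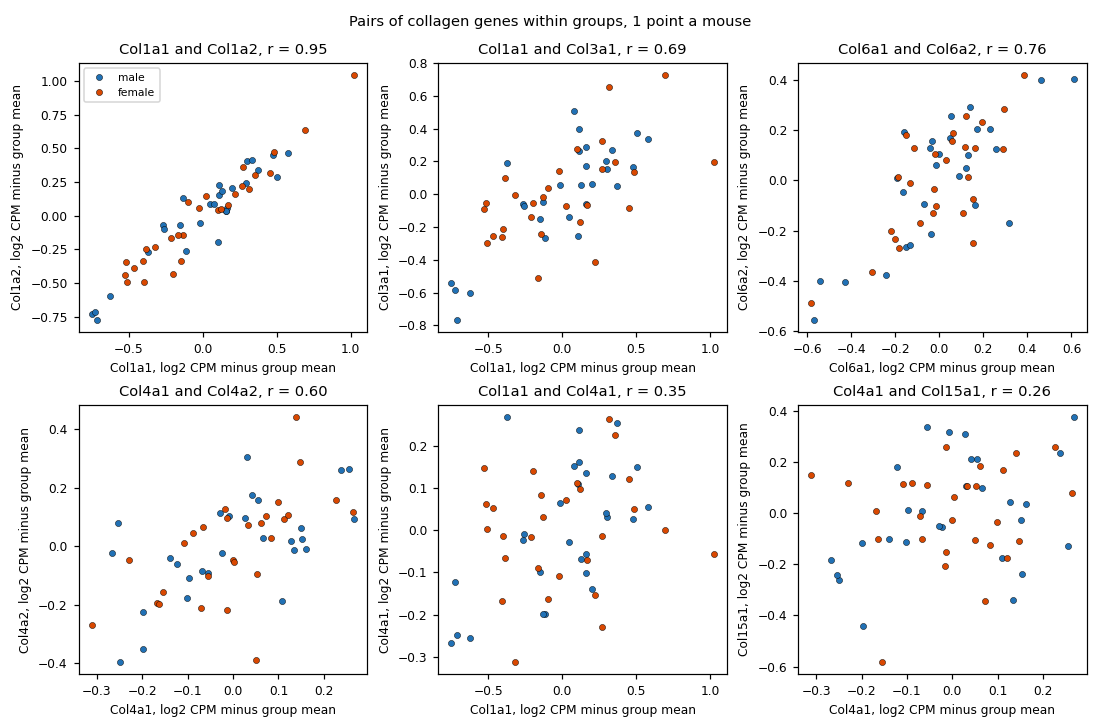
Level of 6 pairs of collagen genes in each mouse (both axes, log2 CPM minus the mean of its group), males blue and females orange (n = 56). Col1a1 and Col1a2 lie close to 1 line (r = 0.95), and Col4a1 and Col15a1 scatter widely (r = 0.26).

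The genes that make and bind collagen were read from lists, whose counts stand against the 15.8% of all genes higher and 17.1% lower in females on average, 33% in all. Of 11 tested genes for procollagen cleavage and crosslinking, 10 were higher in females on average and 0 lower, with a median of 0.45. Lox, which crosslinks fibrils, differed by 0.61 (SE 0.12, adjusted p = 5.0e-05), and Pcolce, an enhancer of procollagen C-propeptide removal, by 0.48 (SE 0.06, adjusted p = 9.9e-09). Of 15 proteins that bind collagen in the matrix 14 were higher and 0 lower. Tnc (tenascin C) differed by 1.05 (SE 0.14, adjusted p = 8.7e-09) and Fmod (fibromodulin), which shapes tendon fibrils, by 0.99 (SE 0.12, adjusted p = 3.5e-09). Of 17 folding and modifying genes 9 were higher, among them Plod2, a lysyl hydroxylase, by 1.04 (SE 0.11, adjusted p = 1.3e-11), and 1, Mia3, was lower.

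Among degradation and uptake genes 5 of 11 were higher in females, with stromelysin Mmp3 at 2.43 (SE 0.23, adjusted p = 3.0e-13), and Timp4, an inhibitor of metalloproteinases, was lower by -0.71 (SE 0.09, adjusted p = 1.3e-09). Of 8 collagen receptors 3 were higher, including Ddr2, a kinase that senses fibrillar collagen, by 0.47 (SE 0.06, adjusted p = 2.5e-09). Of 12 genes of the TGF-beta pathway, a known inducer of collagen genes, 1 was higher (Tgfbr2, 0.27) and 3 were lower (Smad3, Smad4 and Tgfb2), a share like that of all genes. The wheel difference between the sexes, called lower in females for 6.9% and higher for 6.79% of all genes, was called lower for 8 of the 11 cleavage and crosslinking genes, 13 of the 15 matrix proteins, 5 of the 11 degradation genes, 2 of the 8 receptors and 1 each of the folding and TGF-beta lists, and called higher for 1 each of these last lists. Lox gave -1.13 (SE 0.24, adjusted p = 8.5e-04) and Lum, a fibril-binding proteoglycan, -0.83 (SE 0.18, adjusted p = 9.7e-04).

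Markers of cell types moved with these results. Fibroblast markers were higher in females for 10 of 10 genes, and 10 of 10 were called lower in the test of the wheel difference between the sexes. Their summed level was 1518 to 2211 CPM (median 1769) in locked and 1569 to 2866 CPM (median 2296) in running male controls. It was 2566 to 3631 CPM (median 3111) in locked and 1703 to 2371 CPM (median 1904) in running female controls. In controls the fibroblast sums, like the fibrillar sums, stood apart between the sexes on locked wheels and overlapped on running wheels. HuRm-/- males held 1215 to 2324 CPM (median 1978) locked and 1723 to 2512 CPM (median 2319) running. HuRm-/- females held 2227 to 3827 CPM (median 3087) and 2078 to 2933 CPM (median 2523), and the fibroblast sums of the HuRm-/- sexes overlapped on both wheels, whereas the fibrillar sums did so on running wheels only. Dcn, Dpt and Lum are also on the list of matrix proteins. In a whole muscle, fewer cells of a type and less RNA per cell cannot be told apart, and the part of the fibroblast markers in the collagen results was not tested.

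Tendon markers were higher in females for 8 of 9 genes, with 3 called lower in the sex by wheel test, and Comp, Fmod and Thbs4 are also on the matrix list. Their sums ran from 113 to 276 CPM (median 206) in locked-wheel male controls and 289 to 699.5 CPM (median 386) in locked-wheel female controls to 151 to 379 CPM (median 272) and 219 to 305 CPM (median 259) on running wheels. HuRm-/- medians were 208 and 207 CPM in males and 366 and 349 CPM in females. The medians of the tendon sums were thus highest in locked-wheel females. Leukocyte markers were higher in females for 6 of 8 tested genes and called lower in the sex by wheel test for 6, with Cd3e and Cd79a not listed, and their sums were 46.9 to 102 CPM (median 74.4), 52.8 to 137 CPM (median 119), 119 to 243 CPM (median 158) and 68.1 to 163 CPM (median 85) in locked and running male and female controls. Adipocyte markers were higher for 7 and lower for 1 of 10 genes, with 4 called lower in the sex by wheel test, and sums of 485 to 695 CPM (median 558), 611 to 790.0 CPM (median 655), 656 to 938 CPM (median 839) and 539 to 731 CPM (median 656) in the same order. In HuRm-/- mice the leukocyte medians in that order were 83.9, 92.4, 142 and 132 CPM. The adipocyte medians were 583, 679, 796 and 738 CPM. The part of tendon, leukocyte and adipocyte markers in the collagen results was not tested.

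Vessel, nerve and cartilage markers were called at a share near or below that of all genes in the sex average (33%), except for the pericyte and smooth muscle list. Endothelial markers had 1 of 8 genes higher and 2 lower in females, pericyte and smooth muscle markers 4 of 8 lower, and Schwann cell markers 1 of 8 higher, and the sex by wheel test called 0 in each of these lists and had medians of -0.14, -0.19 and -0.43. The endothelial sums had group medians from 226 CPM in locked-wheel female HuRm-/- mice to 273 CPM in running-wheel male HuRm-/- mice. Cartilage and bone were covered by 1 tested gene, which was not called, and Acan, Matn3, Hapln1, Bglap, Sp7 and Cnmd were not listed. Liver markers had 0 of 8 called in the sex average (median -0.34) and in the sex by wheel test (median -1.37), with all 8 below 0 in both. In the wheel average 4 of the 8 were lower on running wheels (median -2.02), against 5.96% of all genes called in either direction. Between the sexes on locked wheels 2 were higher in control females (median 2.60), against 10.3% of all genes called higher. In HuRm-/- females 4 were lower (median -2.14), against 10.2% of all genes called lower. The part of the liver markers in the collagen results was not tested beyond the counts given without the 6 mice.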

How the data were processed

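RNA of gastrocnemius from 56 mice was sequenced, and the authors deposited 1 table of raw counts of reads per gene, with 15539 genes and at least 168 counts per gene over all mice. GRCm38 is named as the build in the submitters' processing notes, with edgeR 3.38.4 in R 4.0.3, and the aligner and the use of strand are not given in the sources used here. The sources disagree on the libraries: QuantSeq 3′ mRNA kit, single reads (labels), or stranded total RNA, paired reads (the study's methods). Members were therefore ranked by their counts only, and these ranks are not read as amounts of transcript. Class sums weigh most the genes with the most counts.

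Counts were normalized by TMM in edgeR 4.0.16, filtered with filterByExpr, and tested with voom and limma 3.58.1 in R 4.3.3, in 1 fit of 8 group means over all 56 mice. TMM and limma are the study's methods. Averages weight the strata equally. A member was called at a Benjamini-Hochberg adjusted p of at most 0.05 over 14321 genes in each comparison. No 2 mice of a group were alike within counting error (168 pairs, lowest ratio of chi-square to its degrees of freedom 3.69), and p-values measure the spread between mice. The test was also tried on counts simulated with the means and spread of these data, and the outcome is not given here.

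The members, classes and lists, and the alternatives, were chosen with earlier results of these data known. Group values were given for members called in an average (at most 10 by size of change), for the member with the most counts in each class, and, chosen after values were seen, for Col3a1, Col4a2, Col8a2 and Col22a1. Members of other lists were named by the same rule (at most 6 a list). Alternatives were edgeR's quasi-likelihood test, DESeq2 1.42.0, upper-quartile normalization, no filter, sample quality weights, a fit of only the groups compared, a replicate block and each mouse left out in turn. Leaving out female controls 12 and 16, or 6 mice with liver markers, was added after seeing the data. Both of these fits leave out female control 12, so they are not separate checks. Promoters came from RefSeq and gene positions from GENCODE M21. Measurements of the study other than these counts were not analysed here.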

Additional observations from a re-analysis of the deposited data

Results flagged for a closer look

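In the wheel response, 17 members differed between the sexes by the sex by wheel test of limma. The running minus locked difference in females minus that in males was, on the log2 scale, -0.83 for Col1a1, -0.86 for Col1a2, -0.90 for Col3a1, -0.72 for Col5a1, -0.82 for Col5a2, -0.50 for Col5a3 and -1.0 for Col11a1 among the fibrillar genes. It was -0.45 for Col4a1, -0.31 for Col4a2, -0.48 for Col6a2 and -0.62 for Col6a3. Of the other collagens it was -0.74 for Col8a1, -1.23 for Col8a2, -0.85 for Col14a1 and -0.46 for Col15a1, and it was positive for Col7a1 (1.15) and Col19a1 (0.97). The sum of fibroblast markers moved with the same contrast, and its part in these values was not tested.

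Single mice stood far from the other 6 of their group by Dixon's test in 11 of 176 groups of 7 (22 members in 8 groups), where chance alone gives about 1 in 20. Female control 12 on the locked wheel was high for Col3a1 (589.6 CPM), Col6a3 (124 CPM) and Col14a1 (40.6 CPM). Female control 25 on the running wheel was high for Col5a2 (36.2 CPM) and Col14a1 (35.8 CPM). Col12a1 was high in female HuRm-/- 14 on the locked wheel (13.4 CPM) and low in male control 5 on the running wheel (1.32 CPM). Col4a2 was high in running male control 13 (66.3 CPM), Col4a4 in running female HuRm-/- 22 (5.97 CPM), Col8a1 in running male HuRm-/- 6 (31.4 CPM) and Col9a1 in locked male HuRm-/- 12 (2.46 CPM).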

How the results depend on the processing

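With edgeR, DESeq2, upper-quartile normalization, no filter and sample quality weights, the sex average called 22 or 23 members and the sex by wheel test 16 or 17. Of 224 values of single members under the alternatives that leave no mouse out in turn, 213 kept their direction and side of the threshold, 11 lost the call and 0 reversed. These values cover only the 10 largest calls of the sex average, the genotype call of Col4a1 and the 17 sex by wheel calls. Calls within strata are not among them. Without female controls 12 and 16, running in female controls lost 8 of 10 calls, and sex in locked-wheel controls lost 6 of 20. Called values of members in all 22 comparisons, 1233 under these alternatives, changed sign in 0 cases. These values were already called and were refitted to largely the same counts, so a change of sign was unlikely from the start. The median of all genes in the sex by wheel test turned from 0.0042 to -0.0041 with sample weights. The wheel average called 2 members with sample weights and 0 to 1 with each mouse left out (1 without female control 15). The genotype average called 3 with edgeR, 3 with DESeq2, 2 with upper-quartile normalization, 4 with sample weights, 2 without female controls 12 and 16 (Col6a2 and Col11a2), and 0 to 4 with each mouse left out. Running in male controls called 3 with DESeq2, 7 with sample weights, 2 in a fit of the 2 groups only and 1 to 5 with each mouse left out, and in male HuRm-/- mice 1 with DESeq2. Running in female controls called 2 without female controls 12 and 16, 6 without the liver-marked mice and 5 to 12 with each mouse left out. Running in female HuRm-/- mice called 1 with upper-quartile normalization, with sample weights and without female controls 12 and 16, and 0 to 1 with each mouse left out. Running in both female genotypes together called 4 without female controls 12 and 16 and 5 without the liver-marked mice. The sexes on running wheels in controls differed in 3 members with edgeR, 3 with DESeq2 and 2 to 5 with each mouse left out. Genotype in running females called 2 with DESeq2. The cause of these shifts was not tested. Col4a1 lost its genotype call with sample weights (adjusted p = 0.051) and without female controls 12 and 16 (adjusted p = 0.057). Without the liver-marked mice Col8a1, Col11a1, Col14a1 and Col19a1 lost their sex by wheel call, and Col8a1 and Col19a1 also without female controls 12 and 16. Precision is limited by depth for Col4a3, Col4a5, Col7a1, Col9a1, Col19a1, Col20a1, Col23a1, Col24a1 and Col26a1, whose median over mice was 3 to 27.5 counts.

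Mouse numbers recur between the sexes. Over 12 same-numbered pairs the correlation of deviations from the group means was -0.20 to 0.18, and 3 pairs had their own number as best match. So few pairs cannot show whether same-numbered mice share a litter, cage or batch. With the number as a replicate block (consensus correlation 0.022) the sex average called 23 members, the sex by wheel test 17, running in female controls 10 and the genotype average 1, and no count differed from the fit without the block.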
